A study of Homo sapiens with 5 samples.

Results

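Chromosome 18 genes were followed in their order along the chromosome in clones of CP70 cells, a cisplatin-resistant subline of the human ovarian cancer cell line A2780. Members were the transcript clusters of the array that carry a chromosome 18 identifier and a gene symbol, with 14 rows of NEDD4L, SMAD and other genes left out. Of 1001 chromosome 18 transcript clusters, 344 carried a symbol, and 330 were members after that step. They named 319 genes alone, of 22411 genes so named on the whole array, and 184 of the 319 exceeded the filter on low values, against 15376 of the 22411. The filter kept a probe set above 4.48 on the log2 scale, the median of all deposited values, on at least 2 of the 5 arrays. The choice of chromosome 18 rests on earlier results of the same contrast, so the DDB2 and vector values are given as a description.

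The vector group was 2 clones of CP70 cells transfected with the empty vector, titled 1 and 3. The second of these carries the number 2 in its source name, and clones are numbered here by title. The DDB2 group was 3 clones stably transfected with pcDNA3.1-His-DDB2, titled 1, 2 and 3. Both groups were grown in the same medium with serum and without a drug treatment in the labels, and 1 Human Transcriptome Array was run per clone on total RNA. Each array is 1 clone, so a difference between groups cannot be told apart from a difference among the clones that happened to be picked. DDB2 itself was 7.84 and 7.25 on the log2 scale in the vector clones against 9.87, 9.00 and 9.14 in the DDB2 clones, a log2 difference of 1.79 (standard error 0.337). Of 12 marker genes checked, KRT8, KRT18 and VIM were at least 6.71 in every clone and PAX8, an ovarian carcinoma marker, was between 5.16 and 5.28, whereas the epithelial cadherin CDH1, the ovarian marker WT1, the leukocyte gene PTPRC and the endothelial gene PECAM1 did not pass the filter. EPCAM was 7.26 in vector clone 1 and between 5.29 and 5.86 in the other clones, and DCN was 6.02 in DDB2 clone 1 and at most 4.01 elsewhere; their part in the results was not tested. The fibroblast collagen COL1A1 (5.61 to 5.85) and the ovarian marker MUC16 (4.63 to 4.69) lay above the filter level in all 5 clones.

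Human chromosome 18 is one of the chromosomes with few genes for its length, and its long arm is often lost in carcinomas. Genes that neighbour each other share the number of copies of their chromosome segment and, over short distances, promoters and chromatin. Neither copy number nor chromatin was measured in these samples. DDB2 binds damaged DNA as part of an ubiquitin ligase and has been described as a regulator of transcription.

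The promoter windows of 7 members are shown first, because the results turn on these genes. They hold the 250 bases upstream of the RefSeq transcription start in the table of GRCh38.p14, 5′ to 3′ on the strand of the gene, with CG dinucleotides in capitals. ZCCHC2 was the only member that passed the study's thresholds, and it stands with LIPG, C18orf54, RELCH and PIGN, which together had the 5 largest differences among genes with separate groups in the stretch from PIK3C3 to ZCCHC2, LIPG the largest. RELCH and PIGN start from one shared region and run in opposite directions. L3MBTL4 and ARHGAP28, added after their values were seen, are neighbours on the short arm that differed among the DDB2 clones. The windows are chr18:62522775-62523024 (plus strand) for ZCCHC2, chr18:49561807-49562056 (plus) for LIPG, chr18:54357667-54357916 (plus) for C18orf54, chr18:62187005-62187254 (plus) for RELCH, chr18:62187057-62187306 (minus) for PIGN, chr18:6414912-6415161 (minus) for L3MBTL4 and chr18:6834235-6834484 (plus) for ARHGAP28.
ZCCHC2: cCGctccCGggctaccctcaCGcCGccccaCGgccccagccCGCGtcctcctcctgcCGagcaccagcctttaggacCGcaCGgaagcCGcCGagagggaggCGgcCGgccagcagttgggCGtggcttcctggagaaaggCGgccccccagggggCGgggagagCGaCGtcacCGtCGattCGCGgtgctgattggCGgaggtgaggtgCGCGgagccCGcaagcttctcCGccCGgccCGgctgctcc
LIPG: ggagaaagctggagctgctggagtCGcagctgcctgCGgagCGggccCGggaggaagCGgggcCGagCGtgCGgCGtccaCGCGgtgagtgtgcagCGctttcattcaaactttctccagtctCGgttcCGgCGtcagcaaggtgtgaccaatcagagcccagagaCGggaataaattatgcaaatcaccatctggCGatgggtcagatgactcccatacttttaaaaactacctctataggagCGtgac
C18orf54: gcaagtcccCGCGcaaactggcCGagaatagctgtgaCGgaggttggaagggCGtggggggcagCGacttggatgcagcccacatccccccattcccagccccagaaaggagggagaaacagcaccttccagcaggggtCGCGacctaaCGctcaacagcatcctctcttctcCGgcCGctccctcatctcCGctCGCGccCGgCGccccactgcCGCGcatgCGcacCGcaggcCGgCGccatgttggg
RELCH: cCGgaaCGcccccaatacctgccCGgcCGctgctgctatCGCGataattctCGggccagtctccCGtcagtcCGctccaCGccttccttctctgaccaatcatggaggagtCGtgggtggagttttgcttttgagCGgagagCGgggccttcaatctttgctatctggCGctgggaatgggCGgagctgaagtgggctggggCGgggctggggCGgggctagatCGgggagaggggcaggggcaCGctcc
PIGN: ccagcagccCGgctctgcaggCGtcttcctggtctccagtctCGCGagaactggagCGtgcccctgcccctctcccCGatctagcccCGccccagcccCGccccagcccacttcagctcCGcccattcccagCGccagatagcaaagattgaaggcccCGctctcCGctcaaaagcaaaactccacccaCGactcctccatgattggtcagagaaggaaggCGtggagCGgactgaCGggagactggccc
L3MBTL4: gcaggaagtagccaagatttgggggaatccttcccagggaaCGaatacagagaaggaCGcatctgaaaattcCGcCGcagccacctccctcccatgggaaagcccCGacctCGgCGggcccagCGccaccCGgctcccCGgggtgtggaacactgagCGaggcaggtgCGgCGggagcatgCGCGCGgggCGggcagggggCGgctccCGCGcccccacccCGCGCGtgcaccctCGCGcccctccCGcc
ARHGAP28: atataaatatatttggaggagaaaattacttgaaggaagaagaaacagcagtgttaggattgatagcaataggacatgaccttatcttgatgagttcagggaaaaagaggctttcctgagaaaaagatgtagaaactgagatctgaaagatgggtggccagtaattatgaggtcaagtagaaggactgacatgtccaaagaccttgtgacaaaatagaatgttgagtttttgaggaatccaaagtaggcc

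The RELCH and PIGN windows shared 198 bases, read on opposite strands. The ZCCHC2 window held 30 CG dinucleotides and was 74.4% G or C, and the LIPG, C18orf54, RELCH, PIGN and L3MBTL4 windows held 18, 22, 19, 16 and 26. The ARHGAP28 window held 0 and was 37.6% G or C, unlike the other windows shown. A promoter was found for 231 of the 319 members, with a median of 20 CG dinucleotides, against a median of 11 over all 27305 promoters of the table. Over the genes above the filter the medians were closer, 24 for 142 chromosome 18 genes and 20 for 11054 genes of the whole array. Of the motifs searched on both strands, TCCCCTTT was found in 1 member, CABYR, on the strand opposite to the gene (0.433% of member promoters against 2.21% of all promoters). TCCCCTTA was found in 0 member promoters and in 0.645% of all promoters. A match says only that these letters occur in the window. The paper places its NEDD4L site farther upstream than these windows reach, so an absence here says nothing about sites outside them.

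Along the chromosome, the DDB2 minus vector difference lay near 0 on the short arm and above 0 over much of the long arm. The median log2 difference was 0.13 over the 184 members, -0.02 over the 60 of the short arm and 0.20 over the 124 of the long arm, against -0.02 over all 15376 genes. The long arm was divided at PIK3C3 and at ZCCHC2, ends taken from earlier results of these data. The median was 0.17 over the 43 genes from ROCK1, the first long-arm gene, to PIK3C3, 0.41 over the 46 genes from PIK3C3 to ZCCHC2, and 0.11 over the 35 genes beyond ZCCHC2. A median of 0.41 corresponds to 1.33-fold. The values were above 0 in 29 of 60 genes of the short arm, and in 28 of 43, 37 of 46 and 21 of 35 genes of the 3 long-arm stretches, with 45.4% of all genes above 0. From PIK3C3 to ZCCHC2 the difference rested more on vector clone 3: without it the median was 0.24, and without vector clone 1 it was 0.52. Without vector clone 1 the median was 0.31 over the long arm, 0.28 from ROCK1 to PIK3C3, 0.033 beyond ZCCHC2 and 0.017 on the short arm. Beyond ZCCHC2 the order was thus reversed, as the median without vector clone 3 was 0.14. Without DDB2 clone 1 it was 0.11 from ROCK1 to PIK3C3, and without DDB2 clone 2 it was 0.059 beyond ZCCHC2.

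**Figure D1:**
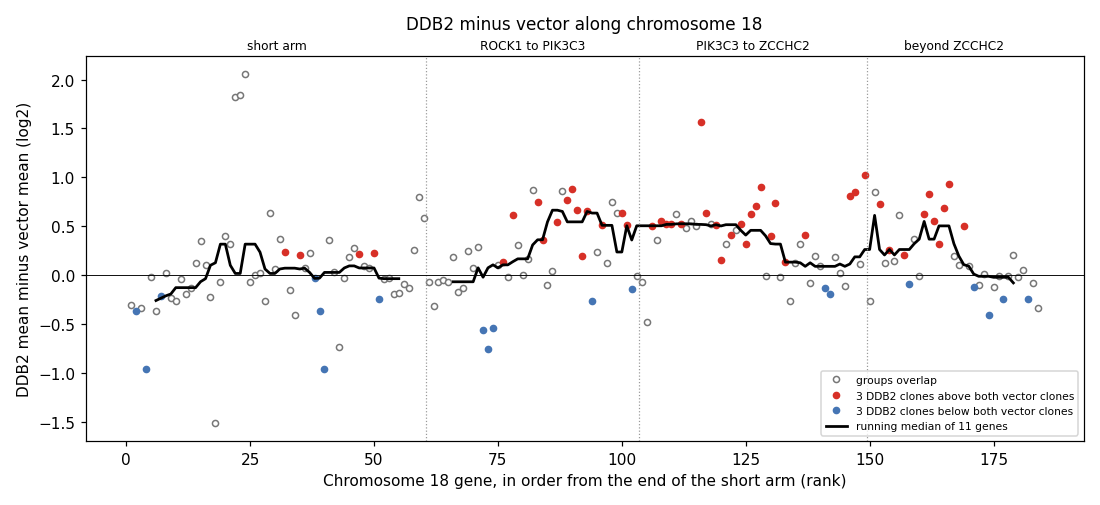
DDB2 mean minus vector mean on the log2 scale (vertical axis) for 184 chromosome 18 genes in order along the chromosome (horizontal axis, rank); filled points are genes whose 3 DDB2 clones lie all above (red) or all below (blue) both vector clones, and the line is a running median of 11 genes within each arm. The line stays between -0.26 and 0.32 on the short arm and reaches 0.66 near WBP11P1 on the long arm.

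Only 1 member was called, that is, differed by more than 2-fold at P under 0.05 before adjustment (the study's thresholds), in limma's fit across all probe sets. This was ZCCHC2, a CCHC zinc finger protein. Its log2 values were 5.54 and 5.92 in vector clones 1 and 3 against 6.87, 6.55 and 6.85 in DDB2 clones 1, 2 and 3. The lowest DDB2 clone was thus above the highest vector clone, with a log2 difference of 1.03 (standard error 0.174). Over all genes, 0.364% were called in either direction, 0.169% higher and 0.195% lower. No member was called lower, 29 members were higher and 9 were lower at an unadjusted P under 0.05 (1.37% and 1.55% of all genes), and none had an adjusted p under 0.05 in limma with Benjamini-Hochberg adjustment, the smallest being 0.999. These counts describe the contrast that chose the chromosome, and nothing is read from them. The ZCCHC2 difference was just past the 2-fold threshold and stayed under it without vector clone 1 (0.84), without DDB2 clone 1 (0.97) and without DDB2 clone 3 (0.98). Without vector clone 1, 12 other members were called higher and 3 lower, in a fit that called 0.878% of all genes higher and 0.618% lower. ZCCHC2 was the member just inside the threshold, and GNAL at -0.96, COLEC12 at -0.96 and ZNF516 at 0.93 were just outside it.

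The 3 DDB2 clones lay above both vector clones in 49 of the 184 members, 26.6% against 5.92% of all genes, and below both in 19, 10.3% against 12.5%. Of the 49 genes, 4 lay on the short arm and 13, 22 and 10 in the 3 long-arm stretches in order. The 19 genes below divided into 7 on the short arm and 5, 2 and 5 on the long arm. On the other 22 chromosomes, the share above ranged from 2.85% on chromosome 19 to 10.4% on chromosome X, and the median difference from -0.05 on chromosome 15 to 0.03 on chromosome 4. Chromosome 18 therefore had the highest value in both measures, which is the property it was chosen for.

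**Figure D2:**
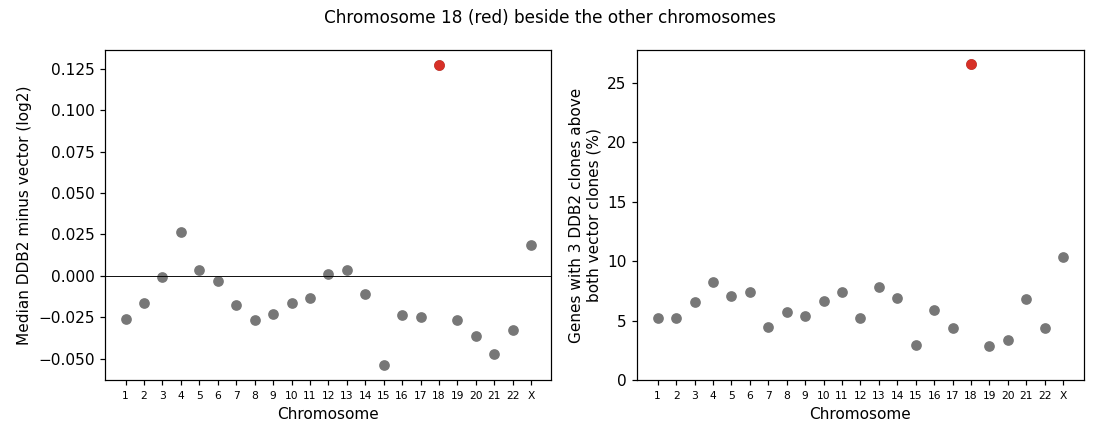
Median DDB2 minus vector difference on the log2 scale (left) and percentage of genes with all 3 DDB2 clones above both vector clones (right) for chromosomes 1 to 22 and X, with chromosome 18 in red. Chromosome 18 had a median of 0.13 and a share of 26.6%, and the other chromosomes reached at most 0.03 and 10.4%.

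The genes were next taken in bins of 10 consecutive members above the filter within each arm. Medians over 0.4 were found in 6 of 18 full bins of chromosome 18, all on the long arm. On the other chromosomes bins ran over the whole chromosome without a break between arms. There 8 of 1490 bins (0.537%) had medians over 0.4, and the medians ran from -0.46 to 0.64. Bins 1 and 2 of that arm, ROCK1 to RMC1 and NPC1 to KCTD1, had medians of -0.07 and 0.06. From CDH2 on, the next 5 bins had medians of 0.64 (CDH2 to ZNF271P), 0.57 (ZNF24 to TPGS2), 0.43 (KIAA1328 to HDHD2), 0.52 (IER3IP1 to CXXC1) and 0.43 (SKA1 to TXNL1). The medians were lower over WDR7 to SEC11C, 0.13, and GRP to PHLPP1, 0.07, though the second of these bins holds ZCCHC2, RELCH and PIGN. They were 0.23 from KDSR to DIPK1C and 0.53 from CNDP2 to MBP, and ended at -0.06 from RNA5SP461 to TXNL4A and -0.16 over the last 4 genes, RBFA to PARD6G. With ends set after the values were seen, the 88 genes from B4GALT6 to ZNF236 had a median of 0.44, with 72 above 0, the 21 before them on that arm had -0.02, and the 15 after ZNF236 had -0.08 with 4 above 0.

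The size of the difference varied with the level of the gene. In the stretch from PIK3C3 to ZCCHC2, the 30 genes above the 75th percentile of all values on at least 2 arrays had a median of 0.52, and 29 of them were above 0. The 16 dimmer genes had a median of 0.01, with 8 above 0. Over all 91 genes of this stretch, the genes under the filter included, the median was 0.034. The same split gave 0.41 over 82 genes and -0.01 over 42 genes of the whole long arm, against 0.01 and -0.04 over all genes. RMA values of dim probe sets are known to be compressed, and the part of this in the lower bins was not tested.

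The 5 clones did not stand apart by group alone. Each value was set against the mean of the 5 clones, and the median was taken over the genes of a stretch. From PIK3C3 to ZCCHC2, vector clone 1 was at -0.06, vector clone 3 at -0.34, and the DDB2 clones at 0.10, 0.10 and 0.11. The 3 DDB2 medians over the whole stretch were thus close, and the vector medians were apart. Taken by bins, the DDB2 clones did differ. Their medians were -0.02, 0.00 and 0.38 in the bin from KIAA1328 to HDHD2, which begins before PIK3C3. In the bin from IER3IP1 to CXXC1, inside the stretch, they were 0.35, 0.28 and 0.00. From ROCK1 to PIK3C3 the medians were -0.09 and -0.19 in the vector clones against 0.04, 0.08 and 0.06 in the DDB2 clones. Beyond ZCCHC2 vector clone 3 was at 0.00, above vector clone 1 at -0.07, and the DDB2 clones were at 0.02, 0.03 and 0.07. On the short arm all 5 medians lay between -0.06 and 0.02, and over all genes of the array between -0.01 and 0.02.

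**Figure D3:**
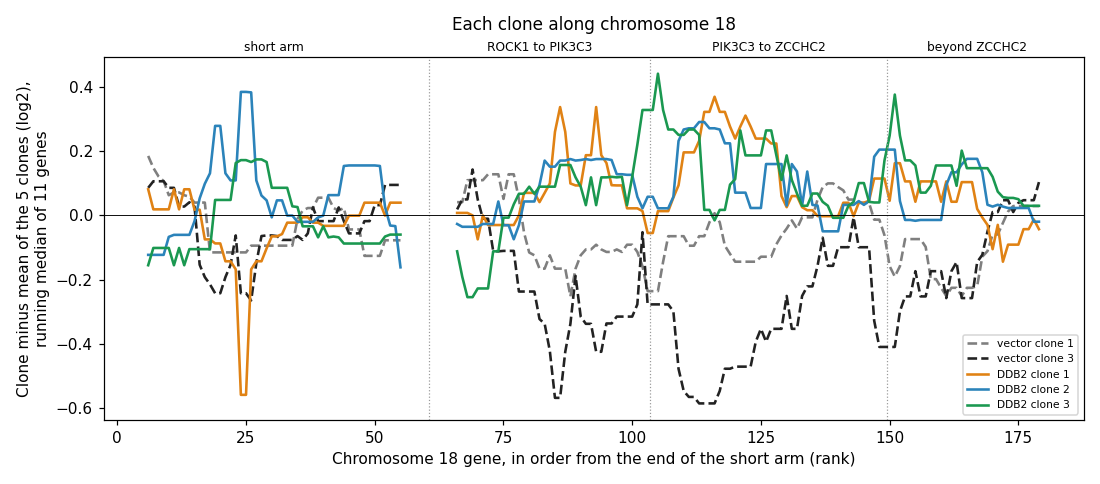
Each clone minus the mean of the 5 clones on the log2 scale, as a running median of 11 genes (vertical axis), along the order of 184 chromosome 18 genes (horizontal axis, rank); broken lines are the 2 vector clones and full lines the 3 DDB2 clones. Vector clone 3 reaches -0.59 near C18orf32, and DDB2 clone 1 reaches -0.56 near ARHGAP28 on the short arm.

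Vector clone 3 was the lowest of the 5 clones in 69 of the 184 members and in 26 of the 46 genes from PIK3C3 to ZCCHC2, against 20.9% of all genes. In the bin from IER3IP1 to CXXC1 it was the lowest in 10 of 10 genes. Vector clone 1 was more than 2-fold above vector clone 3 in 12 members (3.34% of all genes), and vector clone 3 above vector clone 1 in 2, DLGAP1-AS3 and PPP4R1 (2.02%). The median of vector clone 1 minus vector clone 3 was 0.21 from PIK3C3 to ZCCHC2 and -0.01 over all genes. The titles number a vector and a DDB2 clone 3, and both lay below the other 3 arrays in 27 members (19.0% of all genes) and above them in 20 (19.6%).

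The largest member differences on the long arm belonged to genes of several kinds. LIPG, endothelial lipase, was 6.41 and 4.73 in vector clones 1 and 3 and 6.64, 6.80 and 7.96 in the DDB2 clones. Its log2 difference of 1.56 had a standard error of 0.663, with vector clone 3 the lowest and DDB2 clone 3 the highest array. TRAPPC8, which belongs to a complex that tethers vesicles, had 7.10 and 6.86 in the vector clones against 7.69, 7.77 and 7.71 in the DDB2 clones. Here the groups were tight and separate, and the difference was 0.74 (standard error 0.112). ZNF24, a zinc finger transcription factor, was 7.24 and 7.19 in the vector clones against 8.0, 7.86 and 7.77, a difference of 0.66 (standard error 0.109).

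In the neighbourhood of ZNF24 lie other zinc finger genes. ZNF271P, a zinc finger pseudogene, had 5.68 and 5.26 in the vector clones against 6.77, 6.29 and 6.01 in the DDB2 clones, a difference of 0.88. ZSCAN30 had 5.71 and 4.87 against 6.08, 5.90 and 6.18, a difference of 0.77. In both genes vector clone 3 was the lowest array, and the DDB2 clones lay above both vector clones. ZNF397, between MAPRE2 and ZSCAN30, was 6.26 and 4.88 against 6.68, 6.58 and 6.02, so its groups overlapped through vector clone 1 and DDB2 clone 3.

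RELCH, which takes part in cholesterol transport from recycling endosomes, was 5.84 and 6.03 in the vector clones against 6.60, 6.67 and 7.07 in the DDB2 clones. PIGN, an enzyme of GPI anchor synthesis whose promoter window overlaps that of RELCH, was 6.88 and 6.29 against 7.11, 7.40 and 7.68. The differences were 0.85 (standard error 0.181) and 0.81 (standard error 0.257), and in both genes DDB2 clone 3 was the highest array. C18orf54 had 6.28 and 6.07 against 6.94, 6.48 and 7.81, a difference of 0.90 (standard error 0.416), and DDB2 clone 3 was again the highest.

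**Figure D4:**
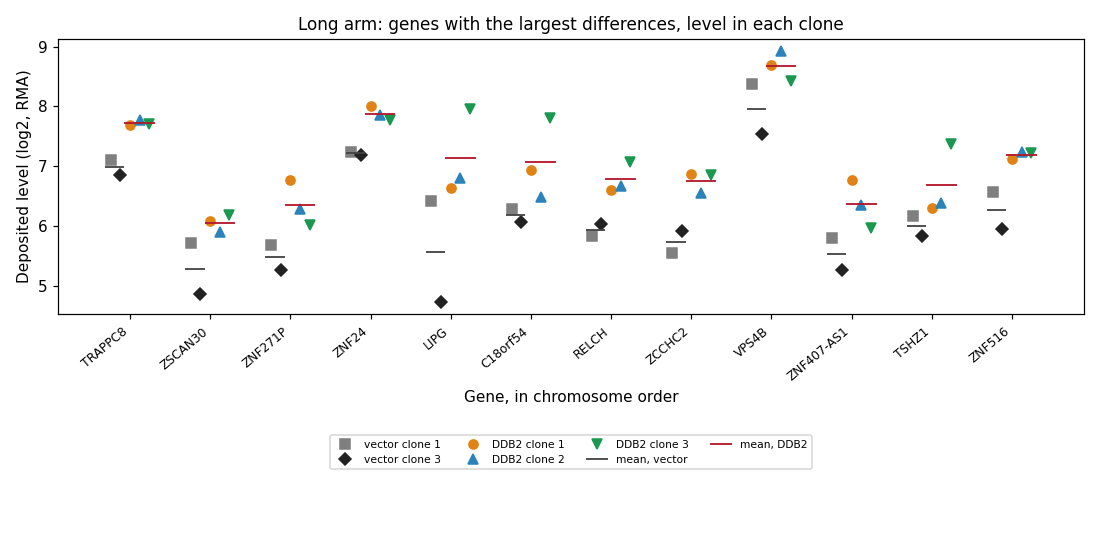
Deposited log2 level (vertical axis) of the 12 long-arm genes with the largest DDB2 minus vector differences among those with separate groups, 4 from each stretch in chromosome order; each symbol is 1 clone and the lines are the means of the 2 vector and the 3 DDB2 clones. In each gene the 3 DDB2 clones lie above both vector clones, and the gap between the vector clones is widest for LIPG, at 6.41 and 4.73.

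Beyond ZCCHC2, ZNF516, a zinc finger repressor, was 6.57 and 5.95 in the vector clones against 7.12, 7.24 and 7.22 in the DDB2 clones, a difference of 0.93 (standard error 0.203). ZNF407-AS1 had 5.80 and 5.25 against 6.77, 6.34 and 5.96, VPS4B, an ATPase that disassembles ESCRT filaments, 8.38 and 7.54 against 8.69, 8.92 and 8.43, and TSHZ1, a teashirt transcription factor, 6.16 and 5.83 against 6.31, 6.39 and 7.37. Their differences were 0.83, 0.72 and 0.69. VPS4B groups were separated by a small gap between vector clone 1 and DDB2 clone 3. KDSR, which makes a precursor of ceramide, was 7.59 and 6.16 against 7.64, 8.20 and 7.33, with overlapping groups.

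The long-arm genes with the DDB2 clones below both vector clones were fewer. TTC39C was 5.33 and 5.99 in the vector clones against 4.95, 5.13 and 4.63 in the DDB2 clones, a difference of -0.76 (standard error 0.26). Next to it, ANKRD29 was 5.37 and 4.99 against 4.65, 4.72 and 4.50, and CABYR, a calcium-binding protein first described in sperm, 6.50 and 6.64 against 6.24, 5.82 and 6.02, differences of -0.56 and -0.55. These 3 genes are consecutive members above the filter, before the point where the medians of the bins passed 0.4. MIR187 had -0.26 and CELF4 -0.14 in that stretch. From PIK3C3 to ZCCHC2, the largest such differences were those of RAX, a homeobox gene, and GRP, gastrin releasing peptide, at -0.19 and -0.14, and both lay between 4.99 and 5.28 in all clones. Beyond ZCCHC2, NFATC1, a transcription factor activated by calcineurin, had 5.55 and 5.96 against 5.35, 5.32 and 5.37, a difference of -0.40. KCNG2, a potassium channel subunit, ADNP2 and RNA5SP461 followed at -0.24, -0.24 and -0.12.

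The short arm had a run of neighbouring genes that differed among the DDB2 clones more than between the groups. ARHGAP28 was 5.71 and 3.56 in vector clones 1 and 3, 3.40 in DDB2 clone 1, and 8.25 and 8.44 in DDB2 clones 2 and 3. L3MBTL4, a protein with MBT domains that bind methylated lysine, was 4.70 and 3.96 in the vector clones, 3.88 in DDB2 clone 1, and 7.34 and 7.22 in DDB2 clones 2 and 3. In both genes DDB2 clones 2 and 3 stood far above the other 3 clones, and DDB2 clone 1 was the lowest of all.

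RNU5F-3P, a small RNA pseudogene that lies inside L3MBTL4 in RefSeq, followed its host with 2.45 and 1.96, 2.10, and 4.94 and 5.09. It passed the filter only through DDB2 clones 2 and 3. MTCL1, which crosslinks microtubules, had 5.25 and 5.42 in the vector clones, 5.05 in DDB2 clone 1, and 6.48 and 6.38 in DDB2 clones 2 and 3. Between ARHGAP28 and MTCL1, LRRC30, LOC100192426 and AKR1B1P6 varied by less than 0.3 over the 5 clones, and RAB12, a small GTPase, was 7.99 and 8.27, 7.40, and 7.94 and 8.24.

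On the other side of the run, EPB41L3, a membrane skeleton protein, was 4.37 in both vector clones, 4.05 in DDB2 clone 1, and 5.48 and 4.78 in DDB2 clones 2 and 3. TMEM200C, between EPB41L3 and L3MBTL4, was 5.09 and 4.94, 5.03, and 5.59 and 5.36. DLGAP1-AS3, an RNA antisense to DLGAP1, had the opposite order: 5.05 and 7.57 in the vector clones, 7.07 in DDB2 clone 1, and 3.84 and 3.47 in DDB2 clones 2 and 3. It was thus high in vector clone 3 and DDB2 clone 1, the clones in which ARHGAP28 was low. Without DDB2 clone 1, ARHGAP28, L3MBTL4, RNU5F-3P and MTCL1 passed the study's thresholds as higher, with log2 differences of 3.71, 2.96, 2.81 and 1.10, and DLGAP1-AS3 as lower, at -2.65, together with COLEC12 at -1.25. That fit called 0.898% of all genes higher and 0.514% lower. With all 5 clones, ARHGAP28 had a difference of 2.06 (standard error 1.82) and L3MBTL4 one of 1.82 (standard error 1.19), neither of which was called.

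**Figure D5:**
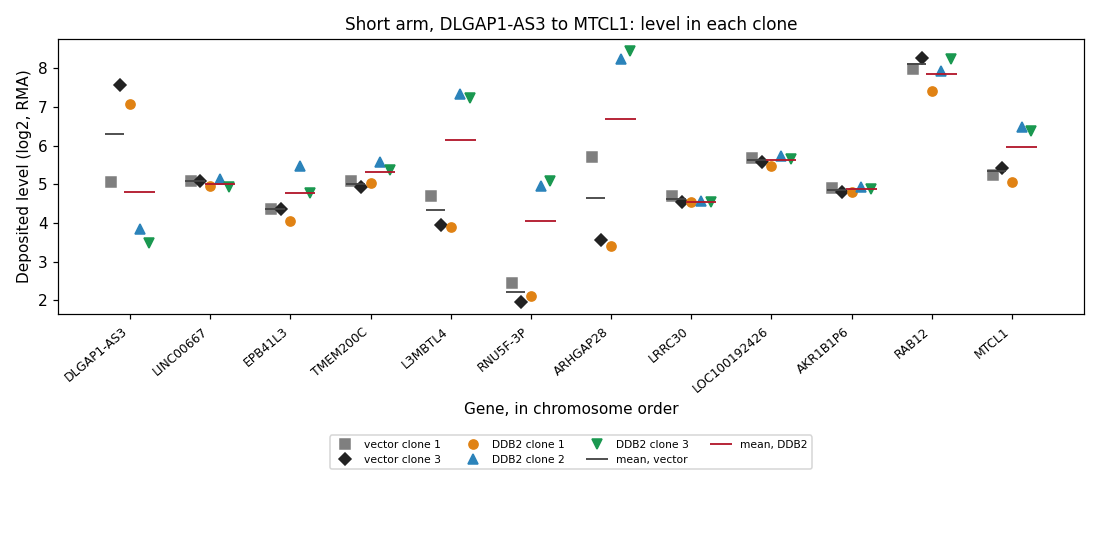
Deposited log2 level (vertical axis) of the 12 consecutive short-arm members above the filter from DLGAP1-AS3 to MTCL1 (horizontal axis); each symbol is 1 clone and the lines are the group means. In EPB41L3, TMEM200C, L3MBTL4, RNU5F-3P, ARHGAP28 and MTCL1 DDB2 clones 2 and 3 lie above the other 3 clones, and in DLGAP1-AS3 they lie below them.

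Among members above the filter, 7 had DDB2 clone 1 more than 2-fold below the mean of DDB2 clones 2 and 3, against 2.48% of all genes. Of the 7, 6 lay on the short arm. The 6 were ARHGAP28, L3MBTL4, RNU5F-3P, MTCL1, TUBB6 and EPB41L3, and the long-arm member was GREB1L. DDB2 clone 1 was more than 2-fold above that mean in 5 members above the filter, against 2.0% of all genes. They were POTEC, DLGAP1-AS3, ANKRD20A5P, CDH2 and NPC1. POTEC was 5.81 and 4.15 in the vector clones, 7.89 in DDB2 clone 1, and 4.45 and 4.34 in DDB2 clones 2 and 3, and ANKRD20A5P next to it was 6.81 in DDB2 clone 1 and 4.19 to 4.73 elsewhere. Both belong to ankyrin repeat families with near-identical copies on other chromosomes, so their probe sets may read several loci. Whether this explains their high values in DDB2 clone 1 was not tested. Below the filter, the short-arm members CXADRP3, CYP4F35P, ANKRD30B, MYOM1 and MC5R were also highest in that clone, the only one where they exceeded 4.48. Their values there were 7.066, 6.485, 4.604, 5.176 and 4.859. In DDB2 clone 2 they were 2.35, 4.23, 2.11, 4.31 and 3.98, and in DDB2 clone 3 they were 2.13, 4.19, 2.19, 4.45 and 3.63. MIR4317 went the other way, at 2.05 against 4.36 and 4.49. DCN, which is no chromosome 18 gene, was also highest in DDB2 clone 1.

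At the end of the short arm the DDB2 mean was mostly lower. The first bin, ROCK1P1 to SMCHD1, had a median of -0.28, with 1 of 10 genes above 0. Against the mean of the 5 clones, the vector clones were at 0.24 and 0.10 in this bin. DDB2 clones 1, 2 and 3 were at 0.06, -0.13 and -0.25, so DDB2 clone 1 was close to vector clone 3. All 3 DDB2 clones lay below both vector clones in 3 of the 10 genes. USP14, a ubiquitin protease of the proteasome, was 9.61 and 9.68 in the vector clones against 9.43, 9.33 and 9.08 in the DDB2 clones, a difference of -0.37 (standard error 0.136). COLEC12, a scavenger receptor, was 5.08 and 5.01 against 4.68, 3.85 and 3.74, a difference of -0.96 (standard error 0.319). YES1, a kinase of the SRC family, was 9.33 and 9.06 against 9.07, 8.85 and 8.55, so its groups overlapped by a small margin. Elsewhere on this arm, GNAL, a G protein alpha subunit, was 6.93 and 7.24 in the vector clones against 5.74, 6.25 and 6.38 in the DDB2 clones. Its difference of -0.96 (standard error 0.235) came just short of 2-fold, and it was called lower on leaving out vector clone 1 (-1.12) and, among the DDB2 clones, clone 2 (-1.03) or clone 3 (-1.09). CHMP1B, which lies inside GNAL in RefSeq, had a difference of 0.36. NAPG, a SNAP protein of membrane fusion, was 7.86 and 8.05 against 7.46, 7.66 and 7.63, a difference of -0.37.

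The 4 short-arm genes with the DDB2 clones above both vector clones differed by small amounts. They were TWSG1, a protein that binds BMPs, with 0.23, CEP76, a centrosome protein, with 0.22, PRELID3A, a mitochondrial lipid transfer protein, with 0.21, and RNA5SP449 with 0.21. IMPA2, an inositol phosphatase, had 7.36 and 8.34 in the vector clones against 7.07, 6.78 and 7.49 in the DDB2 clones, with overlapping groups.

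Members were also grouped in 10 lists by what the proteins do. No list gene was called, since ZCCHC2 belongs to none of them, and the median over all genes tested was -0.02. The counts above and below in these lists stand beside 5.92% above and 12.5% below over all genes, and beside 36.3% above and 9.68% below over the long arm, where most list genes lie, and nothing particular to a list is read from them. In the list of nuclear proteins that act on DNA, chromatin or transcription, 25 of 34 members passed the filter, 13 had the DDB2 clones above both vector clones and 3 (RAX, NFATC1 and ADNP2) below, and the median was 0.41 over 22 long-arm genes and -0.14 over 3 short-arm genes. SS18, a subunit of the BAF complex, was 8.30 and 8.38 in the vector clones against 8.67, 9.00 and 9.18 in the DDB2 clones, a difference of 0.61, whereas MBD2, which binds methylated CpG, had 0.32 and SMCHD1, a chromatin protein of the inactive X chromosome, had -0.26. Of 16 genes of cell division, the centrosome and DNA maintenance, 15 passed, 5 (CEP76, MAPRE2, TPGS2, KATNAL2 and POLI) had separate groups above and 0 below, and the median over the 9 long-arm genes was 0.52. TPGS2, a subunit of tubulin polyglutamylase, had 8.69 and 8.79 against 9.28, 9.25 and 9.59, and POLI, a translesion polymerase, 7.06 and 6.29 against 7.49, 7.37 and 7.29. ROCK1, at the start of the long arm, had a difference of -0.07, NDC80, a kinetochore protein of the short arm, -0.24, and TUBB6, a beta tubulin, 0.18.

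Among 21 genes of membrane traffic and lipid transport, 16 passed the filter, 5 lay above (TRAPPC8, DYM, WDR7, RELCH and VPS4B) and 1 below (NAPG), with medians of 0.41 over 12 long-arm and -0.32 over 4 short-arm genes. IER3IP1, of the endoplasmic reticulum, was 8.55 and 7.59 against 9.19, 8.74 and 8.17, so DDB2 clone 3 fell between the vector clones. LMAN1, a cargo receptor, and VAPA, a contact site protein, differed by 0.19 and 0.07. NPC1, the lysosomal cholesterol transporter, was 8.80 and 7.49 against 9.12, 8.53 and 7.66, and both clones titled 3 were the lowest. The list named mitochondrial held 13 members, all above the filter, with 4 above (PRELID3A, ATP5F1A, ACAA2 and ME2), 0 below and a long-arm median of 0.39. Of these, ACAA2, a thiolase of fatty acid oxidation, was 8.07 and 7.87 against 8.72, 8.42 and 8.66, and ATP5F1A, the alpha subunit of ATP synthase, 8.98 and 9.03 against 9.57, 9.33 and 9.64, differences of 0.63 and 0.50. ME2, a malic enzyme, had 0.41 and AFG3L2, a protease of the inner membrane, 0.28. PSMG2, ELAC1 and TXNL4A stand in this list but act in proteasome assembly, transfer RNA processing and splicing.

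Small-molecule metabolism had 11 of 23 members above the filter, 5 with separate groups above (GALNT1, HDHD2, LIPG, PIGN and CNDP2) and 0 below, and a median of 0.63. GALNT1, which starts O-glycosylation, was 7.16 and 7.56 against 7.85, 7.93 and 8.26, and CNDP2, a dipeptidase, 6.79 and 6.66 against 7.76, 7.25 and 7.02, differences of 0.65 and 0.62, while the zinc transporter SLC39A6 had 0.13. B4GALT6, a lactosylceramide synthase, had 5.84 and 4.34 against 6.53, 5.41 and 5.96, with the widest gap between vector clones in this list after LIPG. In the list on ubiquitin and protein quality, 9 of 12 members passed, 5 lay above (RNF138, MEX3C, TXNL1, TMX3 and SOCS6) and 1, USP14, below. MEX3C, an RNA-binding ubiquitin ligase, was 7.31 and 6.97 against 7.73, 7.71 and 7.55, a difference of 0.52, TXNL1, a thioredoxin of the proteasome, had 0.40, and MIB1, a ligase of the Notch pathway, 0.18.

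Pooled over both arms, the medians of the lists on RNA processing and on signalling were near 0 or below. Over the long arm alone they were 0.11 (6 genes) and -0.17 (5 genes). All 9 members of RNA processing and translation passed the filter, with a median of -0.02, 0 above and 1 below, CELF4 at -0.14. THOC1, of the messenger RNA export machinery, had -0.33 with overlapping groups. NARS1, an asparaginyl transfer RNA synthetase, was 10.99 and 10.02 against 11.24, 11.26 and 9.97, and RIOK3, a kinase of ribosome maturation, 9.21 and 7.88 against 9.33, 9.27 and 7.77, so that in both genes the clones titled 3 were the lowest. SNRPD1, a core splicing protein, and SEH1L, a nuclear pore protein, had -0.05 and -0.04. Of 17 genes of kinases, phosphatases and signalling, 13 passed, with a median of -0.17, 1 above (TWSG1) and 3 below (GNAL, PTPN2 and APCDD1). PPP4R1, a phosphatase subunit, was 7.30 and 8.36 against 7.54, 7.49 and 8.02. PHLPP1, which dephosphorylates AKT and is the first gene beyond ZCCHC2, was 5.74 and 6.59 against 5.39, 5.93 and 6.38, in contrast to its neighbour ZCCHC2.

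Cadherin and adhesion genes were mostly dim: 2 of 13 passed the filter. CDH2, N-cadherin, was 4.81 and 3.81 in the vector clones, 5.82 in DDB2 clone 1, and 3.76 and 3.85 in DDB2 clones 2 and 3, and EMILIN2, an extracellular matrix protein, lay between 5.14 and 5.29. The desmosomal genes DSG1, DSG3, DSG4 and DSC1 and the netrin receptor DCC were below 3.2 in every clone. Of 8 SERPINB protease inhibitors, SERPINB8 alone passed, with 6.96 and 5.71 against 6.24, 7.30 and 5.85, and the others lay at or below 3.37.

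Of the 135 member genes that did not pass the filter, 81 were protein coding, 24 were long noncoding RNAs, 14 were microRNAs and the rest were pseudogenes. They numbered 26 of 86 genes on the short arm and 33 of 76, 45 of 91 and 31 of 66 in the long-arm stretches, and the share was largest from PIK3C3 to ZCCHC2. GATA6, TCF4, SETBP1 and ZNF521 were among them. Of the 184 genes that passed, 166 exceeded the filter level on all 5 arrays, 3 passed only through DDB2 clones (RNU5F-3P, EPB41L3 and BOD1L2) and 1, ADCYAP1, only through vector clones. The 10 member rows that carry several symbols were not named; 8 passed the filter and 0 were called. MIR924HG and SIGLEC15, on either side of PIK3C3, had differences of -0.01 and -0.07, and PARD6G, a cell polarity protein and the last member, had -0.33.

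Chromosome 18 transcript clusters without a symbol numbered 657. Part of them were placed among the members by the number in their identifier, which followed gene order in 323 of 324 neighbouring pairs. On the short arm 118 were placed, and in the long-arm stretches 56, 49 and 21, and the rest are not covered here. Of those placed, the ones above the filter had medians of 0.04 (55 rows) on the short arm. In the long-arm stretches the medians were 0.14 (21 rows), 0.05 (14 rows) and 0.10 (3 rows), and 0 were called. Few of them on the long arm passed the filter.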

How the data were processed

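RNA of 5 CP70 clones, 2 with empty vector and 3 with DDB2, was measured with 1 array per clone, and groups were taken from the sample labels. Background correction, normalization and RMA were done by the authors in the Affymetrix console. The deposited table was taken as log2, a unit read from its range of 1.01 to 14.1, and was not scaled again. Of 70523 entries, 2995 controls were left out. Probe sets above 4.48, the median of all entries, on at least 2 arrays were kept (34141), since the noise level of the methods is not given in the sources used here. The number of arrays limits the precision, and nothing says that clones are repeated, so p-values measure the spread among these clones.

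A gene is a symbol that a probe set carries alone, and of several such sets the one with the highest mean stood for it. Of 320 member rows with 1 symbol, 297 were matched to the RefSeq gene table (GRCh38.p14) by gene number, 22 by symbol and 1 by an older symbol; the build of the array annotation is not stated, so the table gave only the order of genes. Promoters came from RefSeq, and windows are those of GRCh38.p14. The limma package (3.58.1, R 4.3.3) compared DDB2 with vector clones over all probe sets by lmFit and eBayes, with 1.72 prior degrees of freedom and p-values adjusted by Benjamini-Hochberg. A call needed more than a 2-fold difference at P under 0.05 before adjustment. Medians over genes have no test. Of 100 probe sets of this comparison simulated with a log2 change of 1.5, 93 were called, of 100 with a change of 3, 100 were, and of 33941 unchanged ones 232 were, among 34141 probe sets.

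The members, stretches, lists and alternatives were chosen with earlier results of these data known. Genes named are the called member, ZCCHC2 and TRAPPC8, the 4 largest differences in each direction per stretch with groups that do not overlap, the 5 largest differences between vector clones, the ends of stretches and up to 4 members of each list by mean level; further genes of the short-arm run, the small RNAs and a few neighbours were named after their values were seen. Alternatives were other filters, normalizations and variance models, each clone left out, the clone numbers as a block, and other ways to represent a gene. Tables were made with pandas 2.3.3 and figures with matplotlib 3.10.9 in Python 3.11.15.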

Additional observations from a re-analysis of the deposited data

How the results depend on the processing

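Members called higher and lower numbered 1 and 0, and the same under other filters, quantile normalization, centring, an intensity trend with robust fitting, equal variances and other ways to represent a gene. Leaving out each clone gave 1 to 12 higher and 0 to 3 lower; the 12 came without vector clone 1 and did not include ZCCHC2, and without DDB2 clone 1, 2 or 3 they were 4 and 2, 2 and 1, and 2 and 1. Leaving out each clone moved the medians to between 0.10 and 0.19 over all members, -0.047 and 0.017 on the short arm, 0.16 and 0.31 on the long arm, 0.11 and 0.28 from ROCK1 to PIK3C3, 0.24 and 0.52 from PIK3C3 to ZCCHC2, and 0.033 and 0.14 beyond ZCCHC2. Without the filter the medians over all members, the long arm and its 3 stretches were 0.017, 0.019, 0.019, 0.034 and -0.0065, and with a filter at the 25th percentile 0.038, 0.068, 0.074, 0.095 and 0.034, settings that add dim genes. With a filter at the 75th percentile the medians were 0.23 over all members, 0.024 on the short arm, 0.41 on the long arm, 0.24 from ROCK1 to PIK3C3 and 0.23 beyond ZCCHC2. B4GALT6 to ZNF236 in place of the long arm, chosen after seeing the data, gave 0.44. Moving the ends of the stretch from PIK3C3 to ZCCHC2 by 5 genes inward or outward left 0.41.

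The medians of single clones also depended on the choice of centre and filter. With the 75th percentile filter, vector clone 3 was at -0.33 on the long arm and at -0.29, -0.47 and -0.21 in its stretches, DDB2 clone 1 at 0.16 and at 0.11, 0.24 and 0.090, DDB2 clone 2 at 0.15 on the long arm, 0.15 from ROCK1 to PIK3C3 and 0.079 beyond ZCCHC2, and DDB2 clone 3 at 0.27 from PIK3C3 to ZCCHC2. Against the median of the 5 clones, in place of their mean, vector clone 1 was at -0.047 from ROCK1 to PIK3C3, where the 3 DDB2 clones were at 0.0, 0.0 and 0.0, vector clone 3 and DDB2 clone 3 were at 0.0 and -0.0002 on the short arm, and DDB2 clone 3 at 0.027 beyond ZCCHC2.

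With the clone numbers of the titles as a replicate block, 3 members were called higher (ZCCHC2, B4GALT6 and C18orf54) and 1 lower (GNAL), and the median beyond ZCCHC2 was 0.059; with the numbers of the source names, 2 were higher (ZNF271P and ZNF407-AS1) and 1 lower (GNAL). The share of all genes called in these block fits is not given here, so nothing is read from the counts. The labels do not tie a number to a shared batch, and only 2 numbers occur in both groups. The deviations of same-numbered clones from their group means correlated at 0.13 (clones 1) and 0.39 (clones 3) over 15376 genes, but those of vector clone 1 and DDB2 clone 2 also did, at 0.33. The 2 vector clones deviate from their mean by equal and opposite amounts, so these correlations are tied to one another. Whether clones with the same number share more than that number cannot be decided from them.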
